A study of Mus musculus with 6 samples.

Results

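The secreted signals of microglia followed here through mouse hippocampus were 10 genes: the CC chemokines Ccl2, Ccl3, Ccl4 and Ccl12, the CXC chemokines Cxcl2 and Cxcl16, the interleukins Il1a and Il1b, Tnf, and Tgfb1. They were chosen by name, as chemokine and cytokine genes that microglia are known to make, and are 10 of 32429 genes listed in the count tables. Each of the 6 libraries held live CD45+ cells sorted from hippocampi of strain BC57BL/6 (as the labels spell it) and was made with the Chromium single-cell 5′ kit. One library came from non-shocked mice. The acute helpless and acute non-helpless libraries came from mice given 180 inescapable foot shocks of 0.3 mA and then tested in 30 escape trials of 24 s, and differed in whether the mice were scored as helpless. The chronic non-helpless, chronic non-recovered and chronic recovered libraries came from mice that had the same shocks and weekly tests for a further 3 weeks; recovered mice had been helpless and no longer were, non-recovered mice still were. Age, sex and the number of mice in each library are not given in the sources used here.

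Chemokines are small secreted proteins that direct the movement of leukocytes. Ccl2 and Ccl12 are ligands of Ccr2, the receptor that brings monocytes into tissue, whereas Ccl3 and Ccl4 attract several kinds of leukocytes, Ccl3 in part through Ccr1. Interleukin-1 and tumour necrosis factor start and spread inflammation, and their mRNAs are made in bursts after NF-kB is activated and are degraded fast. Transforming growth factor beta 1, the Tgfb1 product, is secreted in a latent form, and its signal through SMAD proteins is needed for the identity of resting microglia.

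The deposited cell types called 2721 of 3005 cells microglia. Summed microglial markers stood at 34432 (chronic non-recovered) to 45255 CPM (counts scaled to a total of 1000000 UMIs) across the libraries. In the batch 2 part of the non-shocked library, described below, they stood at 31138 CPM. The libraries held 99 (chronic non-recovered) to 630 (acute helpless) microglia. The median depth was 3060 to 4579.5 UMIs per microglia in 5 libraries and 2497 in the chronic non-recovered one. The deposited batch column put the acute helpless cells in batch 1, the acute non-helpless cells in batch 2 and the chronic cells in batch 3, with non-shocked cells in batch 2 (123 microglia, median 905 UMIs) and batch 3 (429 microglia, median 3906 UMIs). In all, 5 barcodes occurred in 2 libraries. T cell markers summed to 44.1 CPM in acute non-helpless microglia and 0.469 to 13.2 CPM in the microglia of the other 5 libraries (28.7 CPM in the non-shocked cells of batch 2), and neutrophil markers to 981 CPM in chronic non-helpless and 22472 CPM in chronic non-recovered microglia, against 0 to 9.61 CPM elsewhere; 1 barcode in each of those libraries carried 20 or more neutrophil UMIs. Monocyte markers summed to 885 CPM in chronic non-recovered microglia and 4.43 to 14.1 CPM in those of the other libraries; the part of either marker list in the differences of that library was not tested. Every group was 1 library, so no difference below has a replicate check and no p-value is given. The intervals are exact 95% intervals (Poisson for CPM, Clopper-Pearson for shares, conditional binomial for ratios) and cover the counting of UMIs only. A member was counted as apart between 2 libraries at 1.5-fold or more, where the higher library reached 20 CPM.

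Of the 10 genes, 6 lie in 3 pairs of related neighbours (coordinates on GRCm38, from the GENCODE annotation). Ccl3 (chr11:83647844-83649355, minus strand, 3 exons) and Ccl4 (chr11:83662584-83664683, plus strand, 3 exons) face away from each other across 13228 bases. Ccl2 (chr11:82035571-82037453) and Ccl12 (chr11:82101845-82103400), both with 3 exons on the plus strand, are 64391 bases apart. Il1a (chr2:129299610-129309972) and Il1b (chr2:129364570-129371139), both with 7 exons on the minus strand, are 54597 bases apart. Cxcl16 (chr11:70453983-70459984, minus strand, 5 exons), Cxcl2 (chr5:90903871-90905938, plus strand, 3 exons), Tnf (chr17:35199381-35202007, minus strand, 4 exons) and Tgfb1 (chr7:25687002-25705077, plus strand, 7 exons) stand elsewhere. No pair of members shares a stretch of mRNA longer than 17 bases. Ccl2, Cxcl16, Il1a and Il1b are each overlapped by a gene on the opposite strand (Gm17268, Zmynd15, Gm14023 and Il1bos), and the sources used here do not say whether counting used the strand, so reads of the overlapping stretches cannot be told apart.

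RefSeq promoter entries (GRCm38.p6) matched 7 of the 10 members: Ccl3, Ccl12, Cxcl2, Il1a, Il1b, Tnf and Tgfb1. The 250 bases before the start are shown for 4 of them that stand for the patterns described below: Ccl3, whose UMIs lay in very few cells, Ccl12 and Il1a, which were found in many cells at a few UMIs each, and Tgfb1, the member found in the largest share of microglia. Capitals mark matches to the motifs searched on both strands.
Ccl3 promoter (chr11:83649379-83649628, minus strand): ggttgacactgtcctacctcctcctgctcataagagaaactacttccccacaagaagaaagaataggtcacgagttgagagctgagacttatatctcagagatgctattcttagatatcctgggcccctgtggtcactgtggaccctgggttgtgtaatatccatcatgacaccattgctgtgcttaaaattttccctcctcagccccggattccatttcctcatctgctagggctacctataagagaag
Ccl12 promoter (chr11:82101595-82101844, plus strand): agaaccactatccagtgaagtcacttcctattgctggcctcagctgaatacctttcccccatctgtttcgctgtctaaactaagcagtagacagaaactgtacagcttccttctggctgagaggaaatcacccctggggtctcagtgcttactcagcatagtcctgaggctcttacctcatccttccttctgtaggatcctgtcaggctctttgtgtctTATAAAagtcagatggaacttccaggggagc
Il1a promoter (chr2:129309973-129310222, minus strand): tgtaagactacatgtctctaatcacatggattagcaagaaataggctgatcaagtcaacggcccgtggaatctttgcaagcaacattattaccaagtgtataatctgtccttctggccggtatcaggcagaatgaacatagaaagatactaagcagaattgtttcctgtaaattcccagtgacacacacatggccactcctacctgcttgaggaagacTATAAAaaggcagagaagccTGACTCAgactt
Tgfb1 promoter (chr7:25686752-25687001, plus strand): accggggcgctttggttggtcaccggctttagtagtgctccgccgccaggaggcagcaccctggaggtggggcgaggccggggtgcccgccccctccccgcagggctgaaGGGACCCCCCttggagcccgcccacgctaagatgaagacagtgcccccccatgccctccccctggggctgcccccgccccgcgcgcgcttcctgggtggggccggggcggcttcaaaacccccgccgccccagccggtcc

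The TATA box letters TATAAA stood 31 to 26 bases before the start of Ccl12 and 32 to 27 bases before that of Il1a, and also in the promoters of Il1b and Tnf. They were in 4 of the 7 member promoters and in 12.4% of 32851 mouse promoters of that length. The AP-1 letters TGANTCA were found once, 12 to 6 bases before the Il1a start, and in 6.75% of all promoters. The NF-kB consensus matched in Tgfb1, 140 to 131 bases before the start, on both strands at the same place, and in Cxcl2, and in 7.25% of all promoters. No member promoter held the cyclic AMP element TGACGTCA (1.55% of all promoters), the glucocorticoid receptor core ACANNNTGT (5.84%) or the C/EBP letters TTGCNNAA (9.56%), and the Ccl3 promoter held none of the 6 motifs. These matches describe letters in 250 bases.

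**Figure D1:**
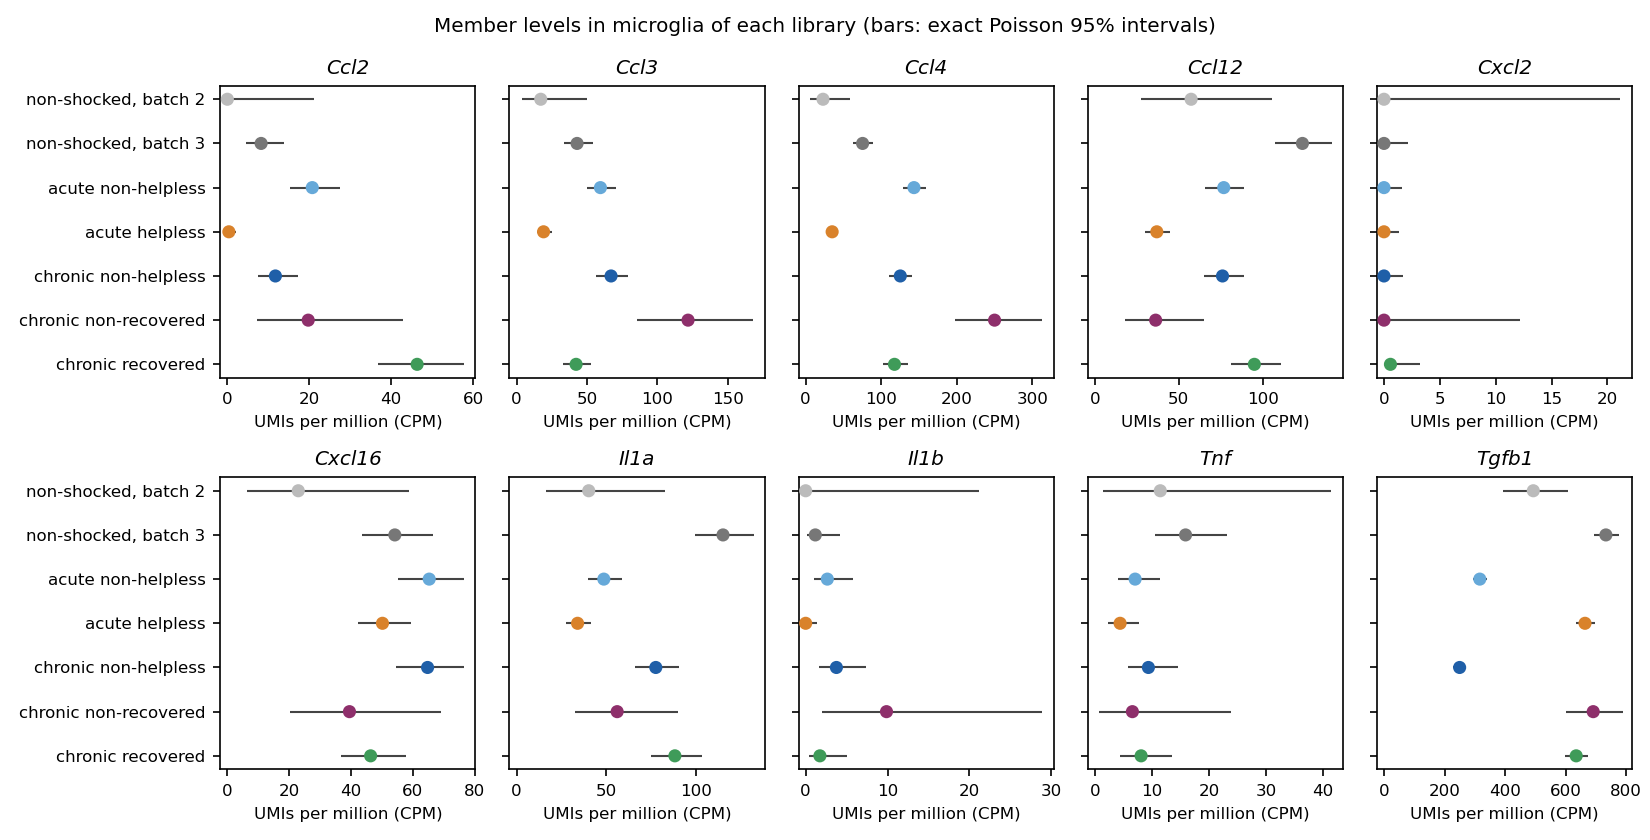
Level of each member in microglia, in CPM (linear axis, a scale of its own for each gene), by library, with non-shocked cells by batch; points are levels and bars exact Poisson 95% intervals. Tgfb1 is lowest in the 2 non-helpless libraries, and Ccl3 and Ccl4 are highest in chronic non-recovered and low in acute helpless and batch 2 non-shocked microglia.

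Ccl3 and Ccl4, the macrophage inflammatory protein chemokines, had their lowest levels among the shocked libraries in acute helpless microglia and their highest in chronic non-recovered microglia. The Ccl3 level was 17.2 CPM (3 UMIs) in batch 2 and 43.0 CPM (interval 33.7 to 54.0) in batch 3 of the non-shocked library, 59.5 CPM (49.9 to 70.5) in acute non-helpless, 19.2 CPM (14.3 to 25.1) in acute helpless, 67.1 CPM (56.5 to 79.0) in chronic non-helpless, 122 CPM (85.7 to 168) in chronic non-recovered and 42.3 CPM (33.1 to 53.2) in chronic recovered microglia. The Ccl4 level was 22.9 CPM (4 UMIs) and 75.3 CPM (62.9 to 89.6) in the 2 non-shocked batches, 143 CPM (128 to 160) in acute non-helpless, 35.0 CPM (28.3 to 42.8) in acute helpless, 125 CPM (111 to 141) in chronic non-helpless, 250.1 CPM (197 to 313) in chronic non-recovered and 118 CPM (102 to 135) in chronic recovered microglia. The intervals of the 3 middle Ccl4 libraries, acute non-helpless, chronic non-helpless and chronic recovered, overlap. The share of cells with a UMI did not follow the levels: for Ccl4 it was 5.05% (5 of 99 cells) in the chronic non-recovered library, which had the highest level, and 9.79% in the non-shocked cells of batch 3.

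A few cells held most of the Ccl3 and Ccl4 UMIs. Of 2721 microglia, 252 had a UMI of either gene and 123 of these had exactly 1, while 12 cells (0.441%, 0.228% to 0.769%) had 20 or more and together held 986 of 1614 UMIs (61.1%). The 12 cells came from every library: 1 was non-shocked (batch 3), 3 were acute helpless, 2 acute non-helpless, 3 chronic recovered, 2 chronic non-recovered and 1 chronic non-helpless. They held 14.9% of the Ccl3 and Ccl4 UMIs of the non-shocked library, 63.0% of acute non-helpless, 71.4% of acute helpless, 66.3% of chronic non-helpless, 83.2% of chronic non-recovered and 70.3% of chronic recovered microglia. The non-shocked library was thus the one in which these UMIs were most evenly spread. The cut at 20 UMIs was set after the cells were seen; the lowest cell inside it had 23 and the highest outside it 15.

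**Figure D2:**
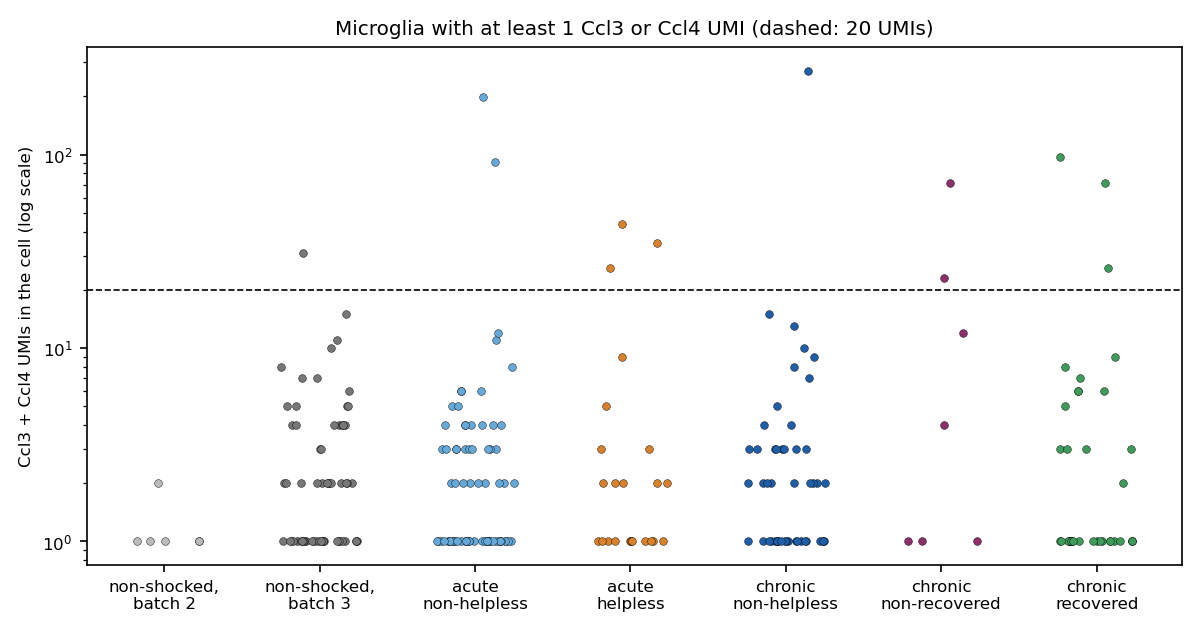
Sum of Ccl3 and Ccl4 UMIs (log axis) in each microglia with at least 1 such UMI, by library, with non-shocked cells by batch; each point is 1 cell, its sideways place carries no value, and the dashed line marks 20 UMIs. Most points lie at 1 to 5 UMIs, and the 12 cells above the line come from every library, up to 272 UMIs in 1 chronic non-helpless cell.

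The highest cell, from the chronic non-helpless library, had 94 Ccl3 and 178 Ccl4 UMIs among 4787, and also 8 Il1b, 5 Tnf and 5 Ccl2 UMIs. Next came an acute non-helpless cell with 59 Ccl3 and 139 Ccl4 UMIs, and a chronic recovered cell with 29 Ccl3, 68 Ccl4 and 61 Ccl2 UMIs and the only Cxcl2 UMI of all microglia. Microglial markers were found in 12 of the 12 cells, at 16 to 791 UMIs with a median of 168.5. Markers of T cells were found in 1 of them (14 UMIs, in an acute non-helpless cell of 22188 UMIs), those of border macrophages in 1 (1 UMI), and those of NK cells, monocytes and neutrophils in 0. Their median depth was 4797.5 UMIs, against 3947 in the 2469 microglia with no Ccl3 or Ccl4 UMI.

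Other rapidly induced members were found in a larger share of these 12 cells than of the microglia with no Ccl3 or Ccl4, although most of their positive cells were among the latter: 52 of 71 for Tnf, 57 of 71 for Ccl2 and 10 of 14 for Il1b. Tnf was found in 8 of the 12 cells (66.7%) and in 2.11% of the microglia without those chemokines, Ccl2 in 7 of 12 against 2.31%, and Il1b in 3 of 12 against 0.405%. Cxcl16, a transmembrane chemokine that also acts as a scavenger receptor, was found in 7 of 12 against 16.2%. Il1a (6 of 12 against 19.7%), Ccl12 (4 of 12 against 17.5%) and Tgfb1 (11 of 12 against 73.6%) differed less between these cells. Across all microglia thinned to 1000 UMIs, Ccl3 and Ccl4 were found together in 17 cells where the product of their shares gives 2.00, above that product in 6 of 6 libraries. At that depth Tnf met Ccl3 in 1 cell against 0.481 and Ccl4 in 1 cell against 0.629, too few to show a difference. Il1a and Tgfb1 were found together in 80 cells against 78.5, and Ccl12 and Il1a in 12 against 12.5. Such counts share the cells' depth and library and are given as a description.

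Without the 12 cells the order of the libraries changed. Ccl3 was then at 35.4 CPM in non-shocked batch 3, 28.1 in acute non-helpless, 8.14 (5.10 to 12.3) in acute helpless, 23.0 in chronic non-helpless, 17.1 in chronic non-recovered and 21.6 in chronic recovered microglia. Ccl4 was at 64.9, 47.8, 7.40 (4.52 to 11.4), 41.85, 47.8 and 26.3 CPM in the same order. Acute helpless microglia were still lowest of the shocked libraries for both genes. Their intervals were below those of the acute non-helpless, chronic non-helpless and chronic recovered libraries and of non-shocked batch 3. Non-shocked batch 2, which held none of the 12 cells, was at 17.2 CPM (3.55 to 50.3) for Ccl3 and 22.9 CPM (6.25 to 58.7) for Ccl4. Its intervals overlapped those of acute helpless microglia. Chronic non-recovered microglia were no longer highest, and the non-shocked cells of batch 3 were. The lower level of acute helpless microglia was thus also seen in the cells with few UMIs. Chronic non-recovered microglia, without their 2 highest cells, lay above recovered microglia for Ccl4 (1.82-fold) and below them for Ccl3. The Ccl4 intervals overlapped, at 26.1 to 80.2 CPM on 14 UMIs against 19.2 to 35.2 CPM on 45 UMIs. A chronic non-recovered cell with 12 Ccl3 and Ccl4 UMIs remained under the cut.

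**Figure D3:**
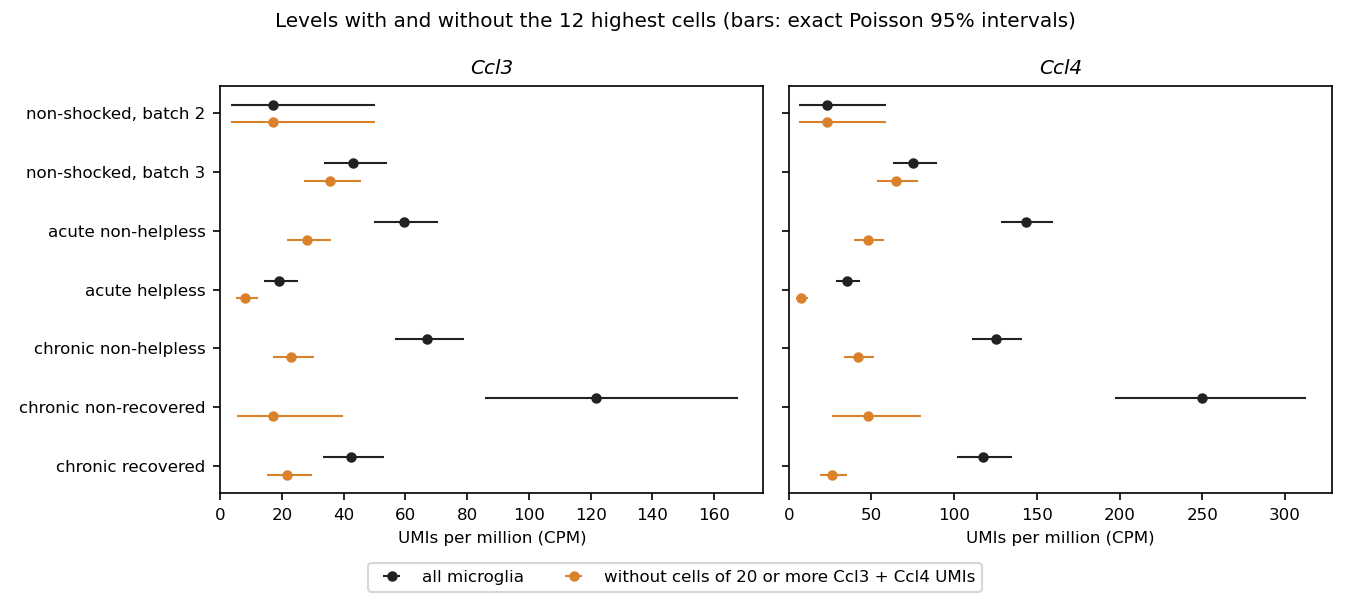
Ccl3 (left) and Ccl4 (right) levels in microglia, in CPM with exact Poisson 95% intervals, over all microglia (black) and without the 12 cells with 20 or more Ccl3 and Ccl4 UMIs (orange). The acute helpless library is lowest of the shocked libraries in both, and the chronic non-recovered level of Ccl4 goes from 250.1 to 47.8.

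Ccl2 and Ccl12, both ligands of Ccr2, did not follow each other. The Ccl2 level was 0 and 8.24 CPM in non-shocked batches 2 and 3, 20.7 CPM (15.2 to 27.6) in acute non-helpless, 0.369 CPM (1 UMI, up to 2.05) in acute helpless, 11.7 CPM (7.59 to 17.3) in chronic non-helpless, 19.7 CPM (7.24 to 43.0) in chronic non-recovered and 46.3 CPM (36.7 to 57.7) in chronic recovered microglia. The acute helpless library, the largest with 630 microglia, had 1 Ccl2 UMI. The high chronic recovered level came mostly from 1 cell with 61 of 80 UMIs; without the 12 Ccl3 and Ccl4 cells it was 9.34 CPM (5.34 to 15.2), next to 9.40 CPM in chronic non-helpless microglia. With 0 Ccl2 UMIs in the 123 shallow non-shocked cells of batch 2, 3 UMIs would be 17.2 CPM there, and the exact interval reaches 21.1 CPM.

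Ccl12 was spread over many cells: 504 microglia (18.5%) had a UMI, and it took 122 cells to hold 50% of the UMIs, against 7 cells for Ccl3, 6 for Ccl4 and 6 for Ccl2. Its level was 57.3 CPM (27.5 to 105) and 124 CPM (107 to 142) in the 2 non-shocked batches, 76.7 CPM (65.8 to 89.0) in acute non-helpless, 36.9 CPM (30.0 to 44.9) in acute helpless, 76.0 CPM (64.8 to 88.7) in chronic non-helpless, 36.2 CPM (18.1 to 64.8) in chronic non-recovered and 94.97 CPM (81.0 to 111) in chronic recovered microglia. The 2 libraries from mice that were helpless when sampled were thus the lowest, and the non-shocked cells of batch 3 the highest. In cells thinned to 1000 UMIs, Ccl12 was found in 6.93% of non-shocked batch 3 microglia, 7.30% of acute non-helpless, 3.65% of acute helpless, 7.88% of chronic non-helpless, 0% (0 of 88) of chronic non-recovered and 7.67% of chronic recovered microglia. Among the shocked libraries these shares give the same 2 as the lowest; non-shocked batch 2, at 1.79% (1 of 56 cells), was also low.

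**Figure D4:**
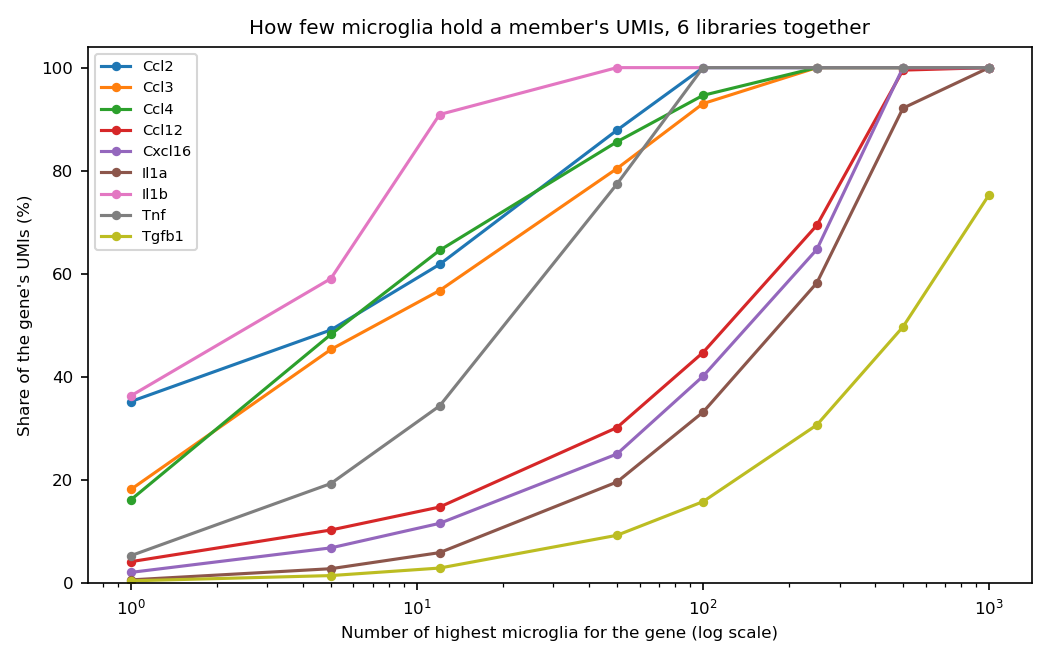
Share of each member's microglial UMIs held by its highest cells, over all libraries (number of cells on a log axis). The 12 highest cells hold 56.8% of Ccl3, 64.6% of Ccl4 and 61.8% of Ccl2, and 14.8% of Ccl12, 5.96% of Il1a and 2.97% of Tgfb1 UMIs.

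Of the CXC chemokines, Cxcl2, a neutrophil attractant, was almost absent, with 1 UMI in 2721 microglia. Cxcl16 varied least among the shocked libraries of the members found in over 5% of microglia of each: its level was 22.9 CPM (4 UMIs) and 54.2 CPM (43.7 to 66.4) in the non-shocked batches, 65.3 CPM (55.2 to 76.7) in acute non-helpless, 50.2 CPM (42.1 to 59.3) in acute helpless, 64.7 CPM (54.4 to 76.5) in chronic non-helpless, 39.5 CPM (20.4 to 69.0) in chronic non-recovered and 46.3 CPM (36.7 to 57.7) in chronic recovered microglia. Libraries listed next to each other overlapped in their intervals, which does not compare every pair. Recovered microglia were 1.40-fold lower (1.05 to 1.86) than chronic non-helpless microglia, under the cut. Cluster 5, a deposited microglial cluster with 121 acute non-helpless and 96 chronic non-helpless cells only, stood above the other clusters for Cxcl16, at 150 CPM (132 in the acute and 169 in the chronic library) against 34.1 to 49.8 CPM.

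Il1a, the interleukin-1 that is stored in the cell and released on damage, was highest in non-shocked batch 3 and lowest in acute helpless microglia. Its level was 40.1 CPM (7 UMIs) and 115 CPM (99.2 to 132) in the non-shocked batches, 48.5 CPM (39.9 to 58.5) in acute non-helpless, 33.9 CPM (27.4 to 41.6) in acute helpless, 77.4 CPM (66.1 to 90.2) in chronic non-helpless, 55.9 CPM (32.6 to 89.6) in chronic non-recovered and 88.0 CPM (74.6 to 103) in chronic recovered microglia. The 2 acute libraries lay below the chronic non-helpless and chronic recovered ones, which overlapped. Acute and chronic cells are in different batches, so batch and group cannot be told apart for this difference. In thinned cells the share with Il1a was 13.4% in non-shocked batch 3 against 4.80% in acute non-helpless, 4.44% in acute helpless, 8.69% in chronic non-helpless, 6.82% in chronic non-recovered and 9.32% in chronic recovered microglia. Non-shocked batch 2, at 3.57% (2 of 56 cells), was below all of these. Il1b, which needs cleavage by caspase-1, had 22 UMIs in 14 microglia, 8 of them in the 1 chronic non-helpless cell named above, and 0 in the 630 acute helpless microglia. Tnf had 93 UMIs in 71 cells, at 11.5 CPM (2 UMIs) and 15.9 CPM (10.5 to 23.1) in the non-shocked batches and 4.43 CPM (2.29 to 7.73) in acute helpless to 9.38 CPM (5.73 to 14.5) in chronic non-helpless microglia. No Tnf level reached 20 CPM, so it entered no count of members apart.

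Tgfb1 separated the libraries from non-helpless mice from the rest. Its level was 493 CPM (394 to 609) and 733 CPM (693 to 775) in the non-shocked batches, 316 CPM (294 to 340) in acute non-helpless, 664 CPM (634 to 695) in acute helpless, 250 CPM (229 to 272) in chronic non-helpless, 691 CPM (601 to 791) in chronic non-recovered and 635 CPM (598 to 673) in chronic recovered microglia. The 2 non-helpless libraries were lowest, with intervals below all others and not overlapping each other; acute helpless, chronic non-recovered and chronic recovered overlapped. The non-shocked cells, which had no shock at all, were on the side of the helpless and recovered libraries. No few cells carried it: 2019 microglia (74.2%) had a Tgfb1 UMI and 504 cells were needed to hold 50%. The share of thinned cells with a UMI was 26.9% in acute non-helpless and 21.4% in chronic non-helpless microglia and 41.1% to 52.2% in the others.

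The same order held within each of the 3 deposited clusters that hold both non-helpless libraries beside others. In cluster 1 the Tgfb1 level was 736 CPM in non-shocked batch 3, 315 in acute non-helpless, 630.3 in acute helpless, 293 in chronic non-helpless and 764 in chronic non-recovered microglia. In cluster 2 it was 291 CPM in acute non-helpless, 715 in acute helpless, 249 in chronic non-helpless and 642 in chronic recovered microglia, and in cluster 3 it was 695 in non-shocked batch 3 and 691 in acute helpless against 265.5 in acute non-helpless and 193 in chronic non-helpless microglia. Both non-helpless libraries were below every other library that had at least 20 cells in the cluster. Cluster 5 held only those 2 libraries, at 383 and 213 CPM, and cluster 6, with no cells of them, had 499 CPM in non-shocked batch 2, 569.6 in chronic non-recovered and 518.5 in chronic recovered microglia. Chronic non-helpless and chronic recovered cells share batch 3, so the difference between them lies within 1 batch, whereas acute helpless and acute non-helpless cells are in different batches and group and batch cannot be told apart.

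**Figure D5:**
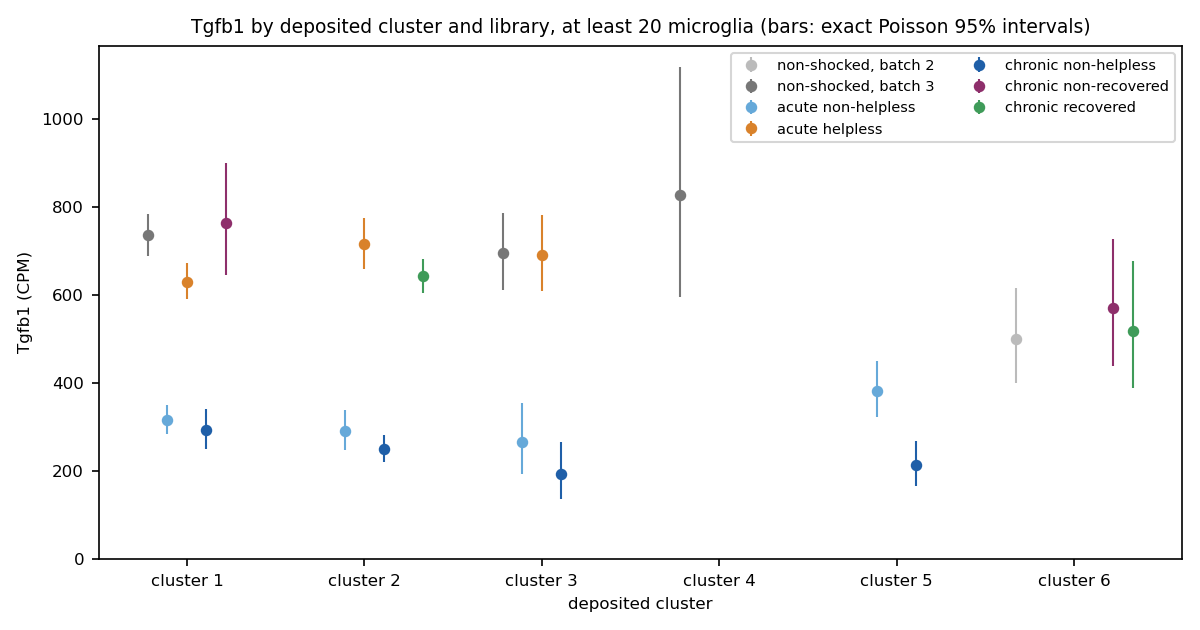
Tgfb1 level in microglia by deposited cluster and library (at least 20 cells), in CPM with exact Poisson 95% intervals. In clusters 1, 2 and 3 the acute and chronic non-helpless libraries, at 193 to 315, lie below every other library, at 630.3 to 764.

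This order was read from Tgfb1 in these same data and then counted among all genes. Whether other orders were met by as few genes was not tested. With the non-shocked batches apart, 50 of 8217 genes (0.608%) were at least 1.5-fold lower in both non-helpless libraries than in each of the other libraries and 0 were higher in that way, and with all non-shocked microglia together the count was 73 of 7737 (0.944%). Tgfb1 was the only member among them. Against non-shocked batch 2, which has 86 Tgfb1 UMIs, the acute non-helpless level was 1.56-fold lower (1.23 to 1.95) and 1.30-fold lower when libraries were scaled by the median of gene ratios. The genes most like Tgfb1 from cell to cell, by the mean over 6 libraries of Pearson's correlation across microglia among 6243 genes, were Gpr34 (0.23), Cst3 (0.21), P2ry12 (0.20), Fau (0.20) and Ctsl (0.20). Gpr34 and P2ry12 are surface receptors of resting microglia, and Cst3 and Ctsl encode a protease inhibitor and a lysosomal protease. The best likeness of the other members found in enough cells was lower, 0.12 for Ccl12 (Uqcrb), 0.13 for Cxcl16 (Cd63) and 0.13 for Il1a (Lasp1). Such values share each cell's depth and are a description.

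Acute helpless microglia had lower CC chemokines and more Tgfb1 than acute non-helpless microglia. Of the 7 members that reached 20 CPM, 4 were lower and 1 was higher, where 17.9% of 6745 genes were apart in either direction and 8.94% were higher. The members' median log2 ratio was −1.06, and that of all genes −0.06. Ccl2 was 56.2-fold lower (9.61 to 2267, 1 against 47 UMIs), Ccl3 and Ccl4 lower as the levels above show, Ccl12 2.08-fold lower (1.62 to 2.69) and Tgfb1 higher. Il1a and Cxcl16 were 1.43-fold (1.07 to 1.91) and 1.30-fold (1.02 to 1.65) lower, under the cut. In thinned cells Ccl2 was 7.85-fold lower (1 against 7 UMIs), and without the 5 highest cells of each library it had 0 against 23 UMIs. In thinned cells Ccl4 was 1.24-fold lower, under the cut, and without the 12 cells 6.46-fold lower. T cell markers were lower in the acute helpless microglia too, 6.64 against 44.1 CPM, and their part in these differences was not tested.

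Against all non-shocked microglia, acute helpless microglia had 4 of 6 members lower and 0 higher, where 29.0% of 7106 genes were apart, 23.1% lower and 5.91% higher. Acute helpless cells are in a batch of their own, so batch and group cannot be told apart here either. Ccl12 was 3.18-fold lower (2.50 to 4.07), Il1a 3.18-fold lower (2.47 to 4.11), Ccl3 2.12-fold lower (1.47 to 3.07) and Ccl4 2.01-fold lower (1.53 to 2.65). Tgfb1, at 664 against 710.5 CPM, was 1.07-fold lower (0.996 to 1.15). Against the batch 2 non-shocked cells alone, Ccl3 and Ccl4 were higher in acute helpless microglia, by 0.16 and 0.61 on the log2 scale, on 3 and 4 UMIs. Without the 12 cells Ccl3 was 4.14-fold and Ccl4 8.24-fold lower than in all non-shocked microglia, and after thinning the Ccl4 ratio reversed, at 0.070 on the log2 scale (46 against 32 UMIs). The non-shocked batches differed between themselves in 5 of 6 members, all lower in batch 2, and in 48.9% of 7757 genes, 21.2% lower and 27.8% higher. Among these members, Ccl3 and Cxcl16, on 3 and 4 UMIs in batch 2, had intervals that include 1.

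Acute non-helpless microglia, set against the non-shocked cells of their own batch, had 3 of 7 members higher and 1 lower, where 58.5% of 7557 genes were apart, 20.5% higher and 38.0% lower. Ccl4 was 6.25-fold (2.42 to 23.1), Ccl3 3.46-fold (1.16 to 17.0) and Cxcl16 2.85-fold higher (1.09 to 10.6), resting on 4, 3 and 4 UMIs in the non-shocked cells, and Tgfb1 was the lower one. Without the 12 cells Ccl4 was 2.08-fold and Ccl3 1.64-fold higher. The share of all genes apart here was above the members' own share of 4 in 7.

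In the chronic libraries, all of batch 3, chronic non-recovered against recovered microglia had 2 of 7 members higher (Ccl3, Ccl4) and 3 lower, where 39.4% of 7277 genes were apart, 27.0% higher and 12.3% lower. Ccl12 was 2.62-fold lower (1.43 to 5.36), Ccl2 2.35-fold lower (1.03 to 6.59) and Il1a 1.57-fold lower (0.951 to 2.77), the last with an interval that includes 1. Without the 12 cells Ccl2 was 1.37-fold lower, under the cut, and Ccl3 turned to −0.34 on the log2 scale. Ccl4 was then 1.82-fold higher, on 14 against 45 UMIs with overlapping intervals of the 2 levels. Without the 5 highest cells of each library Ccl3 was at −1.89, on 1 against 21 UMIs. Ccl4 then had 0 against 32 UMIs, and its −0.91 is a bound with the 0 set to 3 UMIs. Only 5 chronic non-recovered microglia held Ccl4, so that setting could give no other sign for it. Tgfb1 did not separate the 2 libraries, at 1.09-fold higher (0.935 to 1.26). The neutrophil markers of chronic non-recovered microglia, at 22472 CPM, were not found in the 12 Ccl3 and Ccl4 cells. Against chronic non-helpless microglia, non-recovered microglia had 3 of 6 members higher and 2 lower (36.7% of 7327 genes apart, 24.4% higher and 12.3% lower): Tgfb1 was 2.77-fold (2.35 to 3.25), Ccl4 2.00-fold (1.53 to 2.58) and Ccl3 1.81-fold (1.23 to 2.62) higher, Ccl12 2.10-fold lower (1.14 to 4.29) and Cxcl16 1.64-fold lower (0.909 to 3.25). Here Ccl4 was 1.14-fold higher and Ccl3 at −0.43 on the log2 scale without the 12 cells.

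Recovered microglia differed from chronic non-helpless microglia in few genes, 7.25% of 6774 (4.07% higher, 3.17% lower), and in 3 of 7 members. Tgfb1 was 2.54-fold higher (2.29 to 2.83), Ccl2 3.95-fold higher (2.49 to 6.46) and Ccl3 1.59-fold lower (1.19 to 2.13). The Ccl2 difference rested on the 1 cell with 61 UMIs and was −0.01 on the log2 scale without the 12 cells. The Ccl3 difference was 1.07-fold without them, since 1 chronic non-helpless cell held 94 of 143 UMIs, and turned to 0.15 on the log2 scale after thinning, and Ccl4 became 1.59-fold lower without them. The Tgfb1 difference stayed past 1.5-fold without the 5 highest cells of each library. The median log2 ratio was 0.19 over the members and −0.04 over all genes.

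The other 3 chronic comparisons used the non-shocked cells of batch 3 and so share their control. Chronic non-helpless microglia had 2 of 6 members higher and 2 lower (17.0% of 7155 genes apart, 3.65% higher and 13.4% lower), with Tgfb1 2.94-fold (2.65 to 3.26) and Ccl12 1.63-fold (1.32 to 2.01) lower and Ccl4 1.66-fold (1.34 to 2.07) and Ccl3 1.56-fold (1.17 to 2.10) higher. Chronic non-recovered microglia had 2 higher and 2 lower of 6 (27.3% of 7395 genes, 17.0% higher and 10.3% lower), with Ccl4 3.32-fold (2.47 to 4.44) and Ccl3 2.83-fold (1.85 to 4.26) higher and Ccl12 3.42-fold (1.87 to 6.95) and Il1a 2.05-fold (1.25 to 3.59) lower. Chronic recovered microglia had 2 of 7 higher and 0 lower (16.5% of 7084 genes, 3.56% higher and 12.9% lower), Ccl2 at 5.62-fold (3.16 to 10.7) and Ccl4 at 1.56-fold (1.24 to 1.96). Ccl12 was 1.30-fold lower (1.06 to 1.61) there, under the cut. The higher Ccl3 and Ccl4 levels turned to lower ones without the 12 cells in each of these 3 comparisons, and the Ccl2 level of recovered microglia was then 1.13-fold higher, under the cut.

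Cluster 5 also carried the highest Ccl3 and Ccl4 levels of the 6 microglial clusters, 280 and 511 CPM, against 14.3 to 68.1 and 38.1 to 89.2 CPM in the others. In it 2 of 217 cells held 50% of each gene's UMIs, the chronic non-helpless and acute non-helpless cells named above. Outside microglia the same concentration was seen. One acute non-helpless monocyte barcode of 5025 UMIs held 292 of the 590 Ccl12, 88 of the 92 Ccl3, 192 of the 198 Ccl4 and 32 of the 44 Tnf UMIs of 42 monocytes, and carried 68 microglial marker UMIs. The 27 monocyte barcodes with microglial markers held 589 of the 590 Ccl12, 91 of the 92 Ccl3, 195 of the 198 Ccl4 and 35 of the 35 Ccl2 UMIs, so which cell these came from cannot be told apart. Among 39 NK cells, Ccl4 was found in 41.0% and stood at 953 CPM, with 196 of 297 UMIs in 1 chronic non-helpless barcode that also had 164 microglial marker UMIs. Ccl4 stood at 1216 CPM in the 20 NK barcodes with microglial markers (271 UMIs) and at 293 CPM in the 19 without (26 UMIs). The 161 T cell barcodes fell into 118 with microglial markers, which held all of that type's Ccl2 (57), Ccl12 (305), Il1a (87) and Il1b (9) UMIs, and 43 without, which had 115 Ccl3 and 116 Ccl4 UMIs and 0 of those 4 genes. In 17 B cells every member but Tgfb1 was at 0 (3 positive cells would be a share of 17.6%), at a median of 4670 UMIs against 3987 in microglia, and Tgfb1 was found in 11.

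Lists of 120 genes around the members, chosen by function, gave 54 to 58 measured genes in each of the 9 comparisons between groups. NF-kB subunits, inhibitors and mRNA decay factors, which drive or dampen the expression of inflammatory genes, had 8 of 17 measured members lower and 1 higher in acute helpless than in non-shocked microglia, where all genes also leaned lower (23.1% lower, 5.91% higher; list median log2 −0.58, all genes −0.16). Against acute non-helpless cells 4 of 15 were lower and 0 higher, where 17.9% of all genes were apart in either direction (list median −0.27, all genes −0.06). The list also moved between the 2 non-shocked batches, with 6 of 17 genes lower in batch 2 and 0 higher. Of all genes 21.2% were lower and 27.8% higher there (list median −0.32, all genes 0.07). Acute helpless cells are in a batch of their own, so batch and group cannot be told apart for this list. Nfkbiz, an NF-kB cofactor, was at 9.96 CPM in acute helpless, 29.6 in acute non-helpless and 56.6 in non-shocked microglia. Tnfaip3, which ends NF-kB signalling, was at 17.7, 37.5 and 63.0 CPM. Nfkbia, the inhibitor that holds NF-kB in the cytoplasm, was the exception, 2.64-fold higher (2.32 to 3.01) than in non-shocked cells. Nlrp3, the sensor that activates caspase-1 for Il1b, was 3.68-fold lower (2.83 to 4.84) there.

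In chronic non-recovered against recovered microglia the same list was near the background, with 5 of 15 genes higher and 1 lower against 27.0% and 12.3% of all genes and medians of 0.14 and 0.16, and Zfp36l2, an mRNA decay factor, 1.71-fold higher (1.495 to 1.94). Of the genes downstream of Tgfb1, Smad7, the inhibitor that TGF-beta itself induces, was at 80.3 and 189.5 CPM in non-shocked batches 2 and 3, 55.1 in acute non-helpless, 140 in acute helpless, 48.3 in chronic non-helpless, 224 in chronic non-recovered and 44.6 in chronic recovered microglia. It was low where Tgfb1 was low and also in the recovered library, where Tgfb1 was high. Its ratio of chronic non-recovered to recovered microglia was 5.02 (3.57 to 7.04). Of the SMAD signalling list, 3 of 10 measured genes were higher and 0 lower there, where 27.0% and 12.3% of all genes were. Between recovered and chronic non-helpless microglia 0 of 9 were apart, where 7.25% of all genes were, although Tgfb1 was apart. In chronic non-helpless against non-shocked batch 3 microglia, where Tgfb1 was lower, 2 of 10 were lower and 1 higher. Of all genes 13.4% were lower and 3.65% higher there. The lower ones of the list included Smad7, at 3.92-fold (3.13 to 4.95). The higher one was Id2, at 1.74-fold (1.25 to 2.44). Itgav, part of the integrins that release latent TGF-beta, was 2.23-fold higher in chronic non-recovered than in recovered microglia (1.66 to 2.96). The receptors for IL-1, TNF and TGF-beta gave 0 of 6 measured genes apart there, where 39.4% of all genes were, and 0 of 6 between recovered and chronic non-helpless microglia, where 7.25% were. Among the other chemokine ligands, Ccl5 was 4.23-fold lower (2.76 to 6.68) in acute helpless than in acute non-helpless microglia, at 10.3 and 43.7 CPM. Non-shocked microglia of batch 2, the batch of the acute non-helpless cells, had Ccl5 at 34.4 CPM (6 UMIs). Batch and group cannot be told apart for this difference. Ccl5 is also a T cell and NK cell chemokine, and the T cell marker levels given above moved with it. Ccl5 was also higher in recovered microglia, at 27.8 CPM against 0.469 CPM (1 UMI) in chronic non-helpless (59.2-fold, 10.1 to 2388) and 1.77 CPM in non-shocked batch 3 microglia (15.7-fold, 5.07 to 79.0), where T cell markers were at 2.32, 0.469 and 2.94 CPM.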

How the data were processed

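The deposited tables held raw counts, whole UMI counts per gene and cell for each library, beside the authors' deposited cell type, cluster and batch of each cell. Cell Ranger 2.2.0, Seurat 2.3.4 and mm10 are named in the submitters' processing notes. The sources used here do not say what the batch column marks or how cells were filtered, clustered and typed. Members and gene lists were chosen with earlier results of these data known. UMIs were summed over the microglia of each library (Python 3.11.15, numpy 2.4.6, scipy 1.17.1, pandas 2.3.3, matplotlib 3.10.9) and divided by their total to give CPM. Cells are not replicates, so nothing was tested across them. The scripts for sums and ratios were checked on simulated data. For shares at equal depth, 2600 microglia were thinned to 1000 UMIs and shallower cells left out. The background over all genes left out 3932 genes with 0 UMIs in every cell of batches 1 and 2 or of batch 3. Doublets were kept: Scrublet (scanpy 1.11.5) marked 56 of 3005 cells, 50 of them microglia, and their removal was an alternative. All members are described. Other genes are named if at least 1.5-fold apart with 20 CPM in the higher library and an interval without 1, at most 6 per comparison. Like genes are the 5 with the highest mean correlation of log2(CPM + 100), for members found in 5% of microglia in every library.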

Additional observations from a re-analysis of the deposited data

How the results depend on the processing

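No paired analysis was possible because each group has 1 library. Of 36 ratios of members counted as apart, 35 or 36 stayed so, with 0 reversed, under median-of-ratios scaling, totals without mitochondrial and ribosomal genes, filters on depth, mitochondrial share and markers, or doublet removal. With each cell weighted equally 20 did, after thinning 28, without the 5 highest cells of each gene and library 24 of 35, and without the 12 cells with 20 or more Ccl3 and Ccl4 UMIs, an alternative chosen after seeing the data, 27. The counts of members apart changed as follows: acute helpless against non-helpless, 5 to 3 (equal weight, thinned); non-recovered against recovered, 5 to 2 (equal weight) and 3 (without the 5 highest or the 12 cells); non-recovered against chronic non-helpless, 5 to 2 (equal weight); recovered against chronic non-helpless, 3 to 1 (without the 5 highest); chronic non-helpless against non-shocked, 4 to 2 (equal weight); non-recovered against non-shocked, 4 to 7 (minimum of 5 CPM); recovered against non-shocked, 2 to 1 (minimum of 50 CPM). Log2 ratios that reversed were, after thinning, Ccl4 in acute helpless against non-shocked (0.070) and Ccl3 in recovered against chronic non-helpless (0.15), and against batch 2 alone Ccl3 (0.16) and Ccl4 (0.61) in acute helpless microglia. Without the 5 highest cells, Ccl3 and Ccl4 were −1.89 and −0.91 in non-recovered against recovered, −2.28 and −1.36 against chronic non-helpless, −2.80 and −2.16 against non-shocked, and −0.53 and −0.80 in chronic non-helpless against non-shocked microglia, and Ccl4 −1.25 in recovered against non-shocked. Chronic non-recovered microglia then had 1 Ccl3 UMI and 0 Ccl4 UMIs, the latter set to 3. Only 5 of their cells held Ccl4, so the Ccl4 values of the 3 non-recovered comparisons are bounds whose sign was fixed beforehand. Without the 12 cells, Ccl3 was −0.34, −0.43 and −1.05 in those 3 non-recovered comparisons and −0.62 in chronic non-helpless against non-shocked; Ccl4 was −0.44 in non-recovered, −0.63 in chronic non-helpless and −1.31 in recovered against non-shocked; Ccl2 was −0.0097 in recovered against chronic non-helpless. The cause was not tested beyond what leaving out those cells shows. The Tgfb1 ratios counted as apart reversed in no setting; 2 that were not apart changed sign in some (acute helpless against non-shocked, non-recovered against recovered). Its acute non-helpless ratio to non-shocked batch 2 fell under 1.5-fold in several, to a log2 ratio of −0.31 without the 5 highest cells. Depth limits the 99 chronic non-recovered and 123 batch 2 non-shocked microglia most.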
